A study of Mus musculus with 6 samples.

Results

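Cytosolic ribosomal proteins are the proteins of the large and the small subunit of the ribosome that translates nuclear mRNAs. They were taken as the rows of the deposited table whose platform gene symbol is Rpl or Rps with a number and at most 1 of the letters a, b, l, x or y, or Rplp0, Rplp1, Rplp2 or Rpsa. This gave 60 genes of the 19505 tested, of which 37 belonged to the large and 23 to the small subunit, each with 1 probe set. All 60 entered the comparisons as reported, without a filter on low signals; an alternative that left out dim genes kept 58 of them. Rpl10, Rps2, Rps3, Rps27, Rps27a and Rplp2 were not analysed here. RNA came from small intestinal crypts of C57bl/6 mice, with 1 Affymetrix array for each of 6 samples. Villi were scraped off and crypts shaken loose with EDTA, so other cells of the tissue can be present. In the 3 CSN8fl/fl samples Cops8, the gene of a COP9 signalosome subunit, is flanked by loxP sites. By its name, the genotype of the 3 CSN8ΔIEC samples has Cops8 deleted in the epithelium. The labels name no Cre driver. In each genotype replicates 1 and 2 are labelled female and 16 weeks old and replicate 3 male and 10 weeks old. The series was designed to ask whether loss of CSN8 changes antimicrobial peptide production, and the ribosomal protein genes were described by subunit, with and without CSN8fl/fl replicate 3.

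A ribosome holds nearly all of its proteins in equal numbers, and their genes are mostly regulated together. Most of their mRNAs open with a run of pyrimidines at the 5′ end, the terminal oligopyrimidine or TOP tract, through which mTORC1 and the RNA-binding protein LARP1 set how much of each mRNA is translated. New ribosomes are made in the nucleolus, where RNA polymerase I makes the precursor of the ribosomal RNAs and assembly factors fold and trim it onto the proteins. In the intestinal crypt the demand comes from dividing stem and progenitor cells and from secretory cells such as Paneth cells. A few members have paralogs with a restricted pattern: Rpl3l is known from striated muscle, Rpl10l and Rpl39l from testis and Rps27l as a p53 target, and Rps4l is annotated by RefSeq as a transcribed pseudogene.

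The labels call the samples biological replicates without saying that each came from its own mouse, so every p-value rests on the spread among these samples alone, and that spread may be technical. The Y-linked genes Eif2s3y, Uty and Kdm5d went against the labels of sex: Eif2s3y was at 4.06 and 2.81 in the replicates labelled male, and between 9.61 and 10.10 in the 4 labelled female. The sample of CSN8fl/fl replicate 3 stood apart over all probe sets, with Pearson correlations of 0.976 to 0.986 with the others, and the results are given with and without it. The targeted gene Cops8 was lower in each CSN8ΔIEC sample (7.61 to 7.77) than in each CSN8fl/fl sample (8.10 to 8.26), but did not pass the threshold (adjusted p = 0.0865). All 13 epithelial markers were measured, with a mean log2 signal of 11.79 to 11.86 in CSN8fl/fl and 11.74 to 11.86 in CSN8ΔIEC. Signals are log2 values, a group is given as its 3 samples, and a difference is CSN8ΔIEC minus CSN8fl/fl ± SE from limma, with p-values adjusted over all 19505 genes and a threshold of 0.05.

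Pyrimidine tracts stood near the annotated starts of many members. RefSeq promoters on GRCm38.p6 matched 47 of the 60 genes, with 58 starts. The 25 bases from 10 before to 15 after the start are given 5′ to 3′ on the strand of the gene, for the 4 members of each subunit with the longest tract; Rps15a was taken in order of name from 4 small-subunit genes with 8 bases. Capitals mark the tract, a C followed by at least 4 further pyrimidines that opens within 10 bases of the start. A run reaching further upstream was counted from its first C within these 10 bases, so its length can be understated.
Rpl35: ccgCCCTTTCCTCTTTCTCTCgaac
Rpl15: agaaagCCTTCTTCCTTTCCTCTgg
Rpl7a: CTCTTCTTTCTTTCTCCagcagccg
Rpl14: ggCCCTCTCTCTTCTCgctgagcgc
Rps10: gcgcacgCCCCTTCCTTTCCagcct
Rps18: cacttccgCTCTCTCTTCCacagga
Rps6: gaagtcgggCCTCTTTTTCgtgacg
Rps15a: tttctgccatCTTCCCTCgccggtg

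These windows lie at chr2:39005117-39005141 (minus strand), chr14:18270972-18270996 (minus strand), chr2:26910797-26910821 (plus strand), chr9:120571507-120571531 (plus strand), chr17:27635230-27635254 (minus strand), chr17:33955651-33955675 (minus strand), chr4:86857353-86857377 (minus strand) and chr7:118116133-118116157 (minus strand). In Rpl35 the tract ran over 18 bases and in Rps6 over 10. Such a tract stood at 31 of the 58 starts of members (53.4%), against 29.7% of the 32851 starts in the RefSeq table. Tracts of at least 8 bases stood at 17 of 58 (29.3%) and at 7.82% of all starts. The motif CCGGAAG, a site of ETS factors, was found on either strand of 21 of the 58 windows of 300 bases around the starts (36.2%; all starts 8.86%), and AAGATGGC, part of the YY1 site, in 5 (8.62%; all starts 2.75%). Of these 5 windows, 3 overlap at 1 gene, Rpl35a. By gene, AAGATGGC was found in 3 of 47 (6.38%; 3.19% of all genes there), CCGGAAG in 20 (42.6%; 9.93%) and a tract in 30 (63.8%; 33.3%). The last 3 letters of CCGGAAG are the first 3 of AAGATGGC, so a stretch can hold both; overlaps were not counted. The tract was searched on the gene's strand only. A match is a string of letters near an annotated start, and annotated starts can lie some bases off the true start.

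Ribosomal protein genes had slightly higher mean signals in CSN8ΔIEC crypts in nearly all cases, and none passed the threshold. The median difference was 0.26 for the 37 large-subunit genes and 0.22 for the 23 small-subunit genes, or 1.19- and 1.17-fold, where the median over all genes was −0.011. Differences were above 0 in 35 of 37 and 22 of 23 genes, against 48.2% of all genes. In limma, 0 of 37 and 0 of 23 passed, with 1.08% of all genes called (0.374% higher and 0.702% lower). At an unadjusted p under 0.05 there were 7 higher and 0 lower of the large subunit and 0 higher and 1 lower of the small subunit, where 6.95% of all genes were higher and 8.01% lower. Limma with an intensity trend or with a robust prior also called 0 of the 60. The unadjusted count of 7 higher genes varied with the processing: it was 12 after another quantile normalization, 11 with an intensity trend and 4 with arrays centred on the 75th percentile (all genes 7.76%, 7.48% and 5.94% higher). With dim genes left out it was 8 of 58, and the share of all genes kept was larger, at 11.1% higher.

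The differences were smaller without a single control sample. Without CSN8fl/fl replicate 3 the medians were 0.12 and 0.065, or 1.08- and 1.05-fold, and that over all genes was −0.011. Differences were then above 0 in 34 of 37 and 19 of 23 genes (48% of all genes), 0 passed in either subunit, and at an unadjusted p under 0.05 there were 0 higher and 2 lower of the 60 (all genes 5.86% higher and 7.43% lower). The count of 7 higher genes of the 60 was 8, 18 and 0 without CSN8fl/fl replicates 1, 2 and 3 in turn, and 1, 2 and 0 without CSN8ΔIEC replicates 1, 2 and 3. Without the other CSN8fl/fl samples or any 1 CSN8ΔIEC sample, the median over the 60 genes lay between 0.20 and 0.33, against 0.24 with all 6.

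The values by sample were as follows. Relative to each gene's mean over the 6 samples, the median large-subunit gene was at −0.039, 0.027 and −0.39 for replicates 1 to 3 of CSN8fl/fl and at 0.20, 0.044 and 0.16 in CSN8ΔIEC. The small subunit was at −0.021, 0.11 and −0.41 and at 0.19, 0.025 and 0.13. CSN8fl/fl replicate 3 was low in both subunits, and CSN8ΔIEC replicate 2 lay near or below CSN8fl/fl replicate 2. In 56 of the 60 genes the lowest of the 6 values was that of CSN8fl/fl replicate 3, as in 25.7% of all genes. That share covers bright and dim genes alike. Over all probe sets the 75th percentile was 8.63 in CSN8fl/fl replicate 3 and 8.71 to 8.74 in the other samples. The medians were 6.75 and 6.70 to 6.76. Within a sample the subunits lay at similar levels: the large-subunit median minus the small-subunit median was −0.018, −0.083 and 0.024 in CSN8fl/fl and 0.014, 0.019 and 0.029 in CSN8ΔIEC. These subunit balances overlapped between the genotypes.

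**Figure D1:**
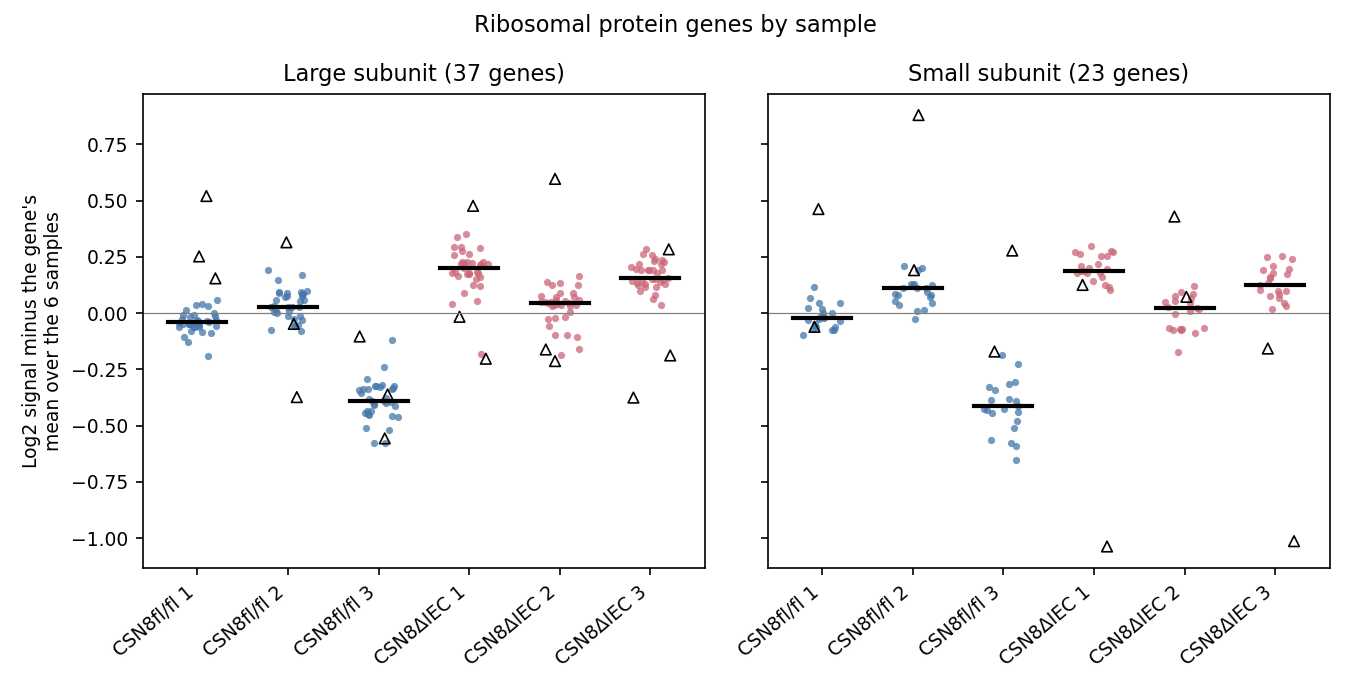
Log2 signal of each ribosomal protein gene minus its mean over the 6 samples (vertical axis), for each sample (horizontal axis), with the large subunit on the left and the small subunit on the right. Filled points are genes, open triangles the 5 paralogs Rpl3l, Rpl10l, Rpl39l, Rps4l and Rps27l, and black bars medians; the bars of CSN8fl/fl replicate 3 lie at −0.39 and −0.41, below those of the other samples, which run from −0.039 to 0.20.

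Leaving the 5 paralogs aside, the other 55 genes lay close together; Rpl32l, which also has a paralog's symbol, is among them. Their signals spanned 8.47 to 13.55 and their differences 0.059 to 0.39, all above 0 (1.04- to 1.31-fold), with SEs of 0.12 to 0.20 and adjusted p-values of 0.274 or more. No 95% interval of these 55 reached above 0.79 (1.73-fold), or above 0.59 (1.5-fold) without CSN8fl/fl replicate 3, where the differences ran from −0.061 to 0.24. Over the 6 samples the Pearson correlation of each gene with the median profile of the other members was above 0.9 in 45 of the 55, with a median of 0.966. In 54 of the 55 the lowest value was that of CSN8fl/fl replicate 3, so this 1 sample weighs heavily in these correlations. They were not computed without it. The genes also share their arrays and normalization. The SD over 3 samples was larger in CSN8fl/fl than in CSN8ΔIEC in 50 of the 55, with medians of 0.24 and 0.10.

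Among the large-subunit genes, Rpl3, which lies close to the peptidyl transferase centre, had the smallest p. Its signals were 12.44, 12.42 and 12.04 (CSN8fl/fl replicates 1 to 3) and 12.66, 12.65 and 12.68 (CSN8ΔIEC replicates 1 to 3). All 3 CSN8ΔIEC values lay above all 3 CSN8fl/fl values, and the difference was 0.36 ± 0.14 (adjusted p = 0.274), or 0.23 without CSN8fl/fl replicate 3. Rpl22, an RNA-binding protein, had 11.86, 11.90 and 11.39 in CSN8fl/fl against 12.14, 12.05 and 12.13 in CSN8ΔIEC. Its difference of 0.39 ± 0.15 (adjusted p = 0.28) was the highest of the 55 genes and was 0.23 without CSN8fl/fl replicate 3. Rpl15 differed by 0.36 ± 0.14 (adjusted p = 0.289), or 0.22 without that sample. In Rpl22 and Rpl15, too, the genotypes did not overlap.

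Rpl5 and Rpl11 form a particle with the 5S ribosomal RNA and can bind the p53 inhibitor Mdm2 when they are in excess. Rpl11 was at 12.25, 12.19 and 11.86 in CSN8fl/fl against 12.42, 12.39 and 12.45 in CSN8ΔIEC, with a difference of 0.32 ± 0.13 (adjusted p = 0.305). Rpl5 was at 12.08, 12.11 and 11.72 in CSN8fl/fl against 12.29, 12.20 and 12.26 in CSN8ΔIEC, with a difference of 0.28 ± 0.14 (adjusted p = 0.384). Both were highest in CSN8ΔIEC samples without overlap, and their differences were 0.20 and 0.15 without CSN8fl/fl replicate 3.

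Rpl4, Rpl17 and Rpl39 line the tunnel through which the new chain leaves the ribosome. Rpl4 was at 12.97, 12.94 and 12.69 in CSN8fl/fl against 13.07, 13.15 and 13.28 in CSN8ΔIEC and differed by 0.30 ± 0.13 (adjusted p = 0.315). Rpl17 differed by 0.20 ± 0.13 (adjusted p = 0.498), with 1 of the 3 smallest SDs of any member over the 6 samples (0.17). Rpl39, encoded on the X chromosome, was at 11.27, 11.52 and 10.75 in CSN8fl/fl against 11.62, 11.38 and 11.43 in CSN8ΔIEC. Its genotypes overlapped, and its difference of 0.29 ± 0.19 (adjusted p = 0.51) was 0.078 without CSN8fl/fl replicate 3, whose value was −0.64 relative to the mean of CSN8fl/fl replicates 1 and 2. The stalk proteins Rplp0 and Rplp1, which recruit translation factors, differed by 0.26 ± 0.15 (adjusted p = 0.47) and 0.30 ± 0.15 (adjusted p = 0.406), and by 0.10 and 0.14 without that sample. Rpl35a, mutated in Diamond-Blackfan anaemia, differed by 0.24 ± 0.15 (adjusted p = 0.477).

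Rpl38, needed for translation of a subset of Hox mRNAs in the embryo, had the lowest difference of the 55 genes. It was at 11.73, 11.76 and 11.43 in CSN8fl/fl against 11.48, 11.70 and 11.90 in CSN8ΔIEC. CSN8ΔIEC replicate 1 was low and replicate 3 high, the genotypes overlapped, and the difference of 0.059 ± 0.15 (adjusted p = 0.883) turned to −0.046 without CSN8fl/fl replicate 3. The differences of the small-subunit genes Rps9 and Rps14, 0.10 ± 0.16 (adjusted p = 0.8) and 0.10 ± 0.15 (adjusted p = 0.783), likewise turned to −0.061 and −0.033; both were named after seeing their values.

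In the small subunit, Rps15, a protein of the head near the decoding site, was at 12.61, 12.62 and 12.26 in CSN8fl/fl against 12.75, 12.74 and 12.90 in CSN8ΔIEC. The genotypes did not overlap, and the difference was 0.30 ± 0.14 (adjusted p = 0.349), or 0.18 without CSN8fl/fl replicate 3. Rps6, the protein phosphorylated by the S6 kinases downstream of mTORC1, was at 12.23, 12.32 and 11.96 in CSN8fl/fl against 12.50, 12.33 and 12.48 in CSN8ΔIEC, with a difference of 0.27 ± 0.13 (adjusted p = 0.389), or 0.16 without that sample. Rps23, which lies at the decoding centre, had the smallest SD of all members over the 6 samples (0.14). It was at 13.32, 13.41 and 13.17 in CSN8fl/fl against 13.52, 13.42 and 13.55 in CSN8ΔIEC, again without overlap, and differed by 0.19 ± 0.12 (adjusted p = 0.483). Rps15, Rps6 and Rps23 were the 3 small-subunit genes without overlap.

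Rpsa, a small-subunit protein also known as the laminin receptor, had the highest difference of the small subunit and the lowest relative value in CSN8fl/fl replicate 3. It was at 11.25, 11.36 and 10.58 in CSN8fl/fl against 11.42, 11.32 and 11.47 in CSN8ΔIEC. The difference of 0.34 ± 0.20 (adjusted p = 0.46) was 0.098 without that sample, which lay −0.72 from the mean of CSN8fl/fl replicates 1 and 2. Rps19, the gene most often mutated in Diamond-Blackfan anaemia, was at 10.39, 10.48 and 9.76 in CSN8fl/fl against 10.60, 10.47 and 10.39 in CSN8ΔIEC. Its difference was 0.28 ± 0.19 (adjusted p = 0.529), or 0.052 without that sample. In both genes the other CSN8fl/fl samples lay within or next to the range of CSN8ΔIEC. Rps20 and Rps25 differed by 0.34 ± 0.18 (adjusted p = 0.413) and 0.27 ± 0.15 (adjusted p = 0.439), or by 0.14 and 0.13 without CSN8fl/fl replicate 3.

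Over both subunits, the 3 CSN8ΔIEC values lay above the 3 CSN8fl/fl values in 17 of the 60 genes, 14 large and 3 small, and below them in 0. This was 28.3%, where 10.7% of all genes lay above and 11.7% below. Besides the genes given above (Rpl3, Rpl4, Rpl5, Rpl11, Rpl15, Rpl17, Rpl22, Rpl35a, Rplp1, Rps6, Rps15 and Rps23), they were Rpl6, Rpl8, Rpl10a, Rpl14 and Rpl28, chosen to be named once their values were known. The count takes no account of the size of the gap. It was narrow in Rps23, whose lowest CSN8ΔIEC value was 13.416 and highest CSN8fl/fl value 13.413, and in Rplp1 (12.924 and 12.921). A gene above all 3 CSN8fl/fl values stays above any 2 of them, so leaving out CSN8fl/fl replicate 3 could only add genes; it added 0 to the 17, and the share of all genes was then 15%. Then 2 of the paralogs, Rpl10l and Rps4l, lay below, against 16.8% of all genes.

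**Figure D2:**
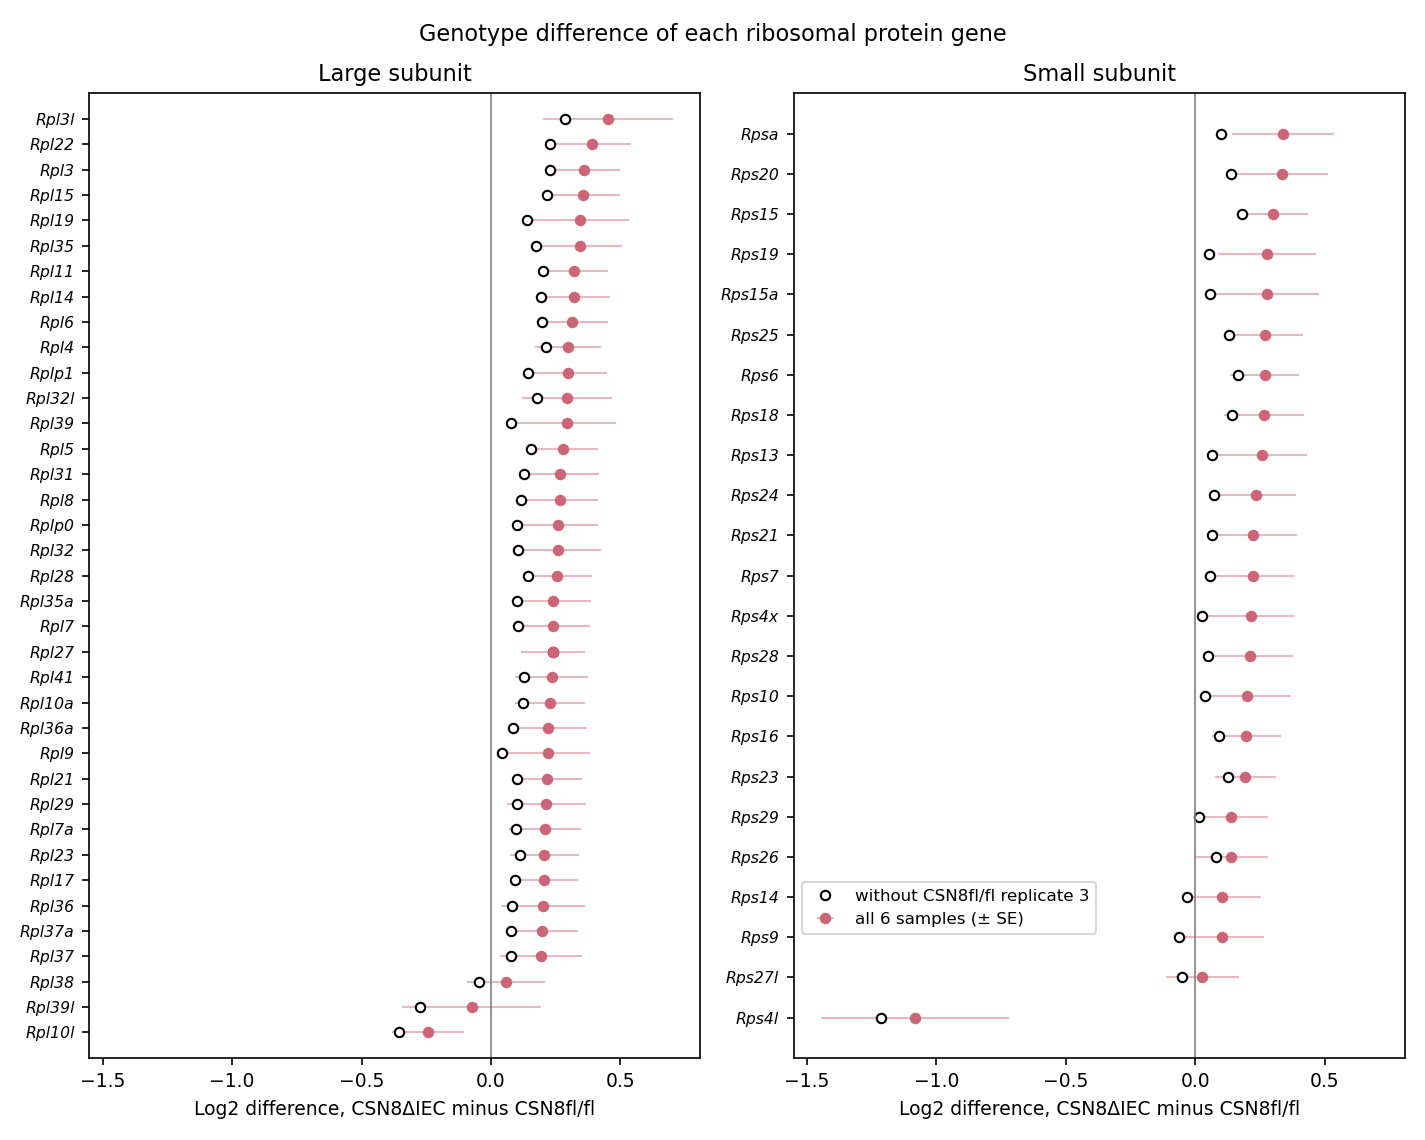
Log2 difference between genotypes, CSN8ΔIEC minus CSN8fl/fl (horizontal axis), for each ribosomal protein gene (rows), by subunit. Filled points are all 6 samples with bars of ± 1 SE, and open points leave out CSN8fl/fl replicate 3; the filled points centre on 0.26 and 0.22 and the open points on 0.12 and 0.065, with Rps4l at −1.08.

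The differences of the 5 paralogs ran from −1.08 to 0.45, a wider range than that of the other 55 genes. The upper end was that of Rpl3l, a dim gene. Rps4l, a copy of the small-subunit gene Rps4x, had the largest difference of the 60 genes, below 0. It was at 8.35, 8.77 and 8.17 (CSN8fl/fl replicates 1 to 3) and 6.85, 8.32 and 6.88 (CSN8ΔIEC replicates 1 to 3). CSN8ΔIEC replicates 1 and 3 were low, while replicate 2 lay between CSN8fl/fl replicates 1 and 3. The difference of −1.08 ± 0.36 (adjusted p = 0.213) was −1.21 without CSN8fl/fl replicate 3 (adjusted p = 0.283), and it passed only without CSN8ΔIEC replicate 2 (−1.57, adjusted p = 0.018; over all alternatives run the adjusted p was 0.018 to 0.506). Rps4x, on the X chromosome, was at 11.25, 11.27 and 10.70 in CSN8fl/fl against 11.39, 11.26 and 11.21 in CSN8ΔIEC, and its difference of 0.21 ± 0.17 (adjusted p = 0.586) was 0.028 without CSN8fl/fl replicate 3. Signal that the related sequences of a pair share on the array was not separated.

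Rpl10l also had a lower mean signal in CSN8ΔIEC. It was at 7.99, 8.15 and 7.73 in CSN8fl/fl against 7.82, 7.68 and 7.65 in CSN8ΔIEC. CSN8fl/fl replicate 3 lay among the CSN8ΔIEC values and replicates 1 and 2 above them. The difference was −0.24 ± 0.14 (adjusted p = 0.45), or −0.36 (adjusted p = 0.272) without that sample. Rps27l was at 9.51, 9.76 and 9.40 in CSN8fl/fl against 9.69, 9.64 and 9.41 in CSN8ΔIEC, with overlap and a difference of 0.027 ± 0.14 (adjusted p = 0.945). Rpl3l was at 5.29, 4.67 and 4.49 in CSN8fl/fl against 4.84, 5.64 and 5.33 in CSN8ΔIEC, with overlap and a difference of 0.45 ± 0.25 (adjusted p = 0.441). Rpl39l was at 5.64, 5.07 and 4.76 in CSN8fl/fl against 5.60, 4.91 and 4.74 in CSN8ΔIEC, and its difference was −0.074 ± 0.27 (adjusted p = 0.92). Rpl3l and Rpl39l had, after Rps4l, the largest SDs over the 6 samples (0.45 and 0.40) and those of their counterparts were 0.24 for Rpl3 and 0.31 for Rpl39. Both paralogs lay below the median of every array (6.70 to 6.76) and were left out by the filter on dim genes. Their counterparts were bright, so these SDs were not measured at like signals.

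**Figure D3:**
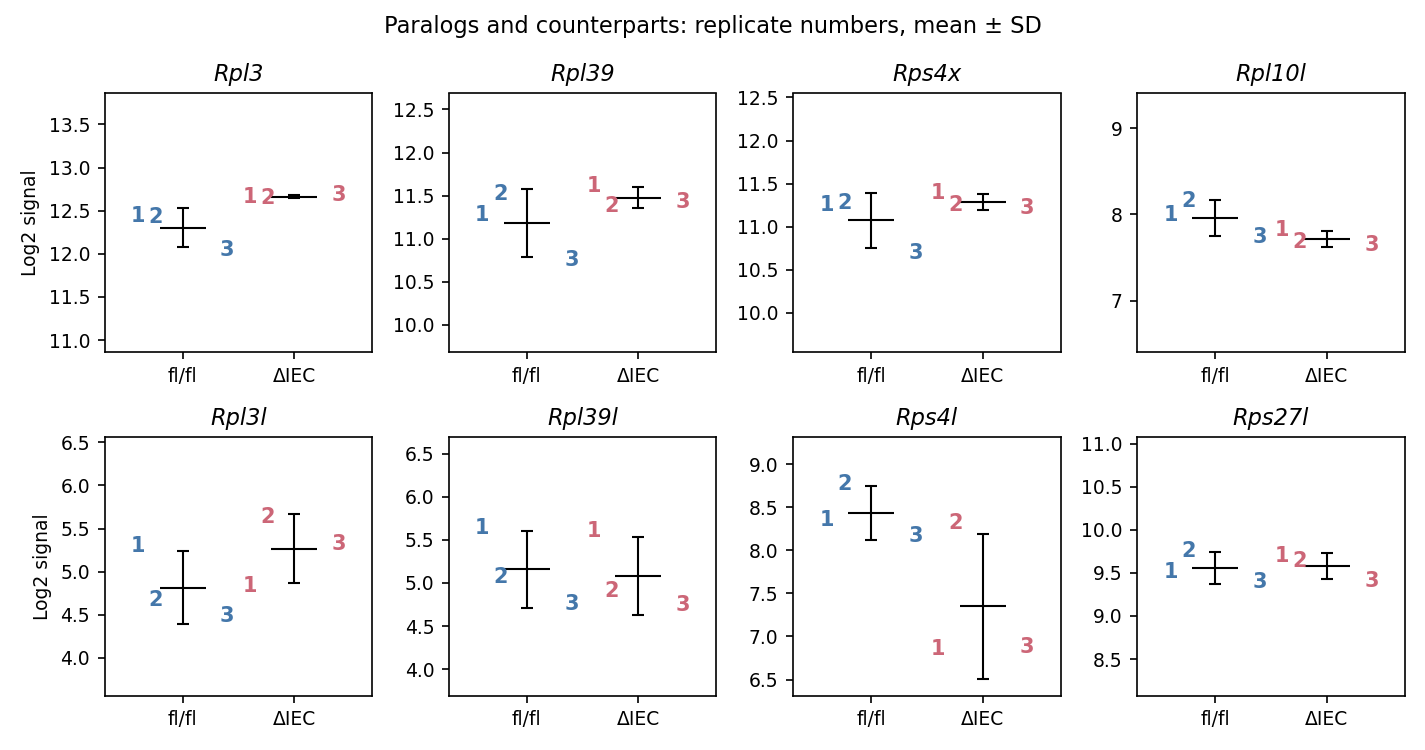
Log2 signal (vertical axis, each panel spanning the same number of log2 units) of Rpl3, Rpl39 and Rps4x above their paralogs, and of Rpl10l and Rps27l, by genotype (horizontal axis). Digits are replicate numbers, and bars the mean ± SD of 3 samples; in Rps4l, CSN8ΔIEC replicates 1 and 3 lie at 6.85 and 6.88 and replicate 2 at 8.32, among the CSN8fl/fl values.

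The starts of 4 paralogs were in the RefSeq table, and they are shown for comparison with the starts above. Capitals mark a tract as above.
Rpl39l: aggCCTTTCCggatttccggtggtc
Rpl10l: CCTCCattttgcggctggcggtggg
Rpl3l: ttctagctctgtcatttgaCCTCTg
Rps27l: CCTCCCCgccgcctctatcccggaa

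They lie at chr16:10170218-10170242 (plus strand), chr12:66284387-66284411 (minus strand), chr17:24727816-24727840 (plus strand) and chr9:66946076-66946100 (plus strand), and for Rpl3l and Rps27l the start with the longer tract of 2 is given. The tracts of these paralogs were 5 to 7 bases long as counted and did not open at the start itself. Nor did most others: a tract opened at the start or 1 base before it at 4 of the 58 starts of members (6.9%; all starts 2.26%). Rps4l had no entry.

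Replicate 3 differs from replicates 1 and 2 in the labels of sex and age, in both genotypes alike. In a model with genotype and this class, the median of replicate 3 minus replicates 1 and 2 was −0.18 over the 60 genes, and 0 passed (all genes 0.0154%). At an unadjusted p under 0.05 there were 0 higher and 3 lower of the 60, where 3.25% of all genes were higher and 2.91% lower. CSN8fl/fl replicate 3 lay below both other CSN8fl/fl samples in 59 of 60 genes (39% of all genes), with a median of −0.40 against their mean. CSN8ΔIEC replicate 3 lay below both other CSN8ΔIEC samples in 6 of 60 (34.4% of all genes), with a median of 0.040. The largest gap in CSN8fl/fl was that of Rpsa (−0.72), and the only gene without one was Rpl27 (0.0026), a large-subunit gene whose difference of 0.24 ± 0.12 (adjusted p = 0.411) was 0.24 without that sample. Rpl27 was chosen after its values were seen.

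Within replicates 1 and 2, labelled as females of 16 weeks, the median difference between genotypes was 0.098 in the large and 0.064 in the small subunit, with 53 of the 60 above 0 (48.4% of all genes) and 0 past the threshold (0.497% of all genes; at an unadjusted p under 0.05 also 0 of the 60, against 4.62% higher and 6.21% lower of all genes). Between the samples of replicate 3, 1 against 1 with no test, it was 0.56 and 0.55. The interaction of genotype with the labelled class, which tests whether these differ, had a median of 0.45 and 0.49, and 0 of the 60 passed it, as 0 of all genes did. At an unadjusted p under 0.05 there were 3 of 60 higher and 0 lower, where 5.59% of all genes were higher and 4.53% lower. This count varied with the settings, which for the interaction were chosen after seeing the data. It was 34 of 60 with an intensity trend (all genes 7.02% higher; smallest adjusted p of a member 0.153) and 18 of 58 with dim genes left out (10.6%; 0.164), with 0 lower and 0 past the threshold in both. It was 5 after another quantile normalization and 1 with arrays centred on the 75th percentile. The 3 genes as reported were Rpsa (0.83 ± 0.23, adjusted p = 0.421), Rpl38 (0.63 ± 0.24, adjusted p = 0.476) and Rpl10a (0.53 ± 0.22, adjusted p = 0.492). Each class of replicate 3 held 1 sample, and the spread came from the others.

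Ribosome assembly factors, proteins that help to build the subunits, had the highest median of the lists with all 6 samples. Of 73 ribosome assembly factors measured (of 76 listed), 70 were higher in CSN8ΔIEC, with a median of 0.47, and 0.34 without CSN8fl/fl replicate 3. None of them passed. At an unadjusted p under 0.05, 49 were higher and 1 lower (all genes 6.95% and 8.01%). In 53 of the 73 the CSN8ΔIEC values all lay above the CSN8fl/fl values, and in 2 below (all genes 10.7% and 11.7%). Without CSN8fl/fl replicate 3 the count above was 54 (all genes 15%). Wdr43, a factor of the small-subunit processome, was at 9.56, 9.41 and 9.18 in CSN8fl/fl against 9.98, 9.84 and 10.09 in CSN8ΔIEC, a difference of 0.59 ± 0.14 (adjusted p = 0.0955), or 0.49 without that sample. Utp4, of the same particle, was at 9.52, 9.33 and 8.95 in CSN8fl/fl against 9.96, 9.80 and 10.02 in CSN8ΔIEC, a difference of 0.66 ± 0.16 (adjusted p = 0.104), or 0.50. Noc2l, a nucleolar protein, differed by 0.69 ± 0.17 (adjusted p = 0.104), or 0.53. In these 3 genes every CSN8ΔIEC sample lay above every CSN8fl/fl sample.

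RNA polymerase I and its factors had a median of 0.32, or 0.21 without CSN8fl/fl replicate 3. As listed, they include subunits shared with the other nuclear RNA polymerases and the general transcription factors Myc, Mycn and Max. The values of the list are therefore not specific to RNA polymerase I. Of 19 measured (of 23 listed), 16 were above 0 and 0 passed the threshold. The CSN8ΔIEC values lay above without overlap in 10 and below in 1 (all genes 10.7% and 11.7%). Unadjusted, 9 were higher and 0 lower (all genes 6.95% and 8.01%). Taf1a, a subunit of the factor that selects ribosomal DNA promoters, had a difference of 0.74 ± 0.18 (adjusted p = 0.113), or 0.56 without that sample. Polr2h, a subunit shared by the nuclear RNA polymerases, differed by 0.45 ± 0.12 (adjusted p = 0.129) and Polr1e by 0.55 ± 0.16 (adjusted p = 0.15).

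Initiation and elongation factors bring mRNA and amino acids to the ribosome. The 30 initiation factors measured (of 37) had a median of 0.20, or 0.13 without CSN8fl/fl replicate 3, with 0 past the threshold. Unadjusted, 4 were higher and 0 lower (all genes 6.95% and 8.01%). Eif2b1 and Eif2b3, subunits of the exchange factor of eIF2, differed by 0.60 ± 0.16 (adjusted p = 0.129) and 0.61 ± 0.21 (adjusted p = 0.215), and the helicase Eif4a1 by 0.36 ± 0.12 (adjusted p = 0.212). The elongation list of 9 genes also holds Eef1e1, Eef2k and Tpt1, which are not elongation factors themselves. Its median was 0.20, or 0.18 without CSN8fl/fl replicate 3, with 0 past the threshold and 2 higher unadjusted. Eef1g, a subunit of the exchange factor of eEF1A, was at 12.33, 12.26 and 11.84 in CSN8fl/fl against 12.52, 12.51 and 12.62 in CSN8ΔIEC. Its difference was 0.41 ± 0.15 (adjusted p = 0.254). Eef1e1, a scaffold protein of the tRNA synthetase complex, differed by 0.56 ± 0.16 (adjusted p = 0.162). Eef1d, of the same exchange factor, differed by 0.27 ± 0.13 (adjusted p = 0.378).

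Ribosomal and ribosome-associated proteins whose symbols fall outside the pattern had a median of 0.18 over the 9 measured (of 12), 0.044 without CSN8fl/fl replicate 3 and 0 past the threshold, adjusted or unadjusted. Rps3a1, a small-subunit protein, differed by 0.31 ± 0.14 (adjusted p = 0.352), Serbp1, which binds idle ribosomes, by 0.27 ± 0.13 (adjusted p = 0.385) and Btf3, a subunit of the nascent-chain complex, by 0.21 ± 0.12 (adjusted p = 0.464). The 76 mitochondrial ribosomal proteins had 0.13 and, without that sample, 0.018, with 0 past the threshold and 5 higher unadjusted; Mrpl19, Mrps7 and Mrps27 differed by 0.57 ± 0.14 (adjusted p = 0.114), 0.35 ± 0.13 (adjusted p = 0.25) and 0.52 ± 0.19 (adjusted p = 0.261). The 28 genes measured (of 30) of mTORC1 and of regulators of ribosomal protein mRNAs had 0.072 and 0.028, with 0 past the threshold and 2 higher and 1 lower unadjusted. Cnbp, a protein that binds TOP mRNAs, differed by 0.39 ± 0.13 (adjusted p = 0.211), Tsc2, an inhibitor of mTORC1, by 0.28 ± 0.11 (adjusted p = 0.304) and Sesn1, a p53 target that restrains mTORC1, by −0.50 ± 0.16 (adjusted p = 0.188). The call rates over all genes given above are the background for these lists, and whether a list differs from the ribosomal proteins was not tested.

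**Figure D4:**
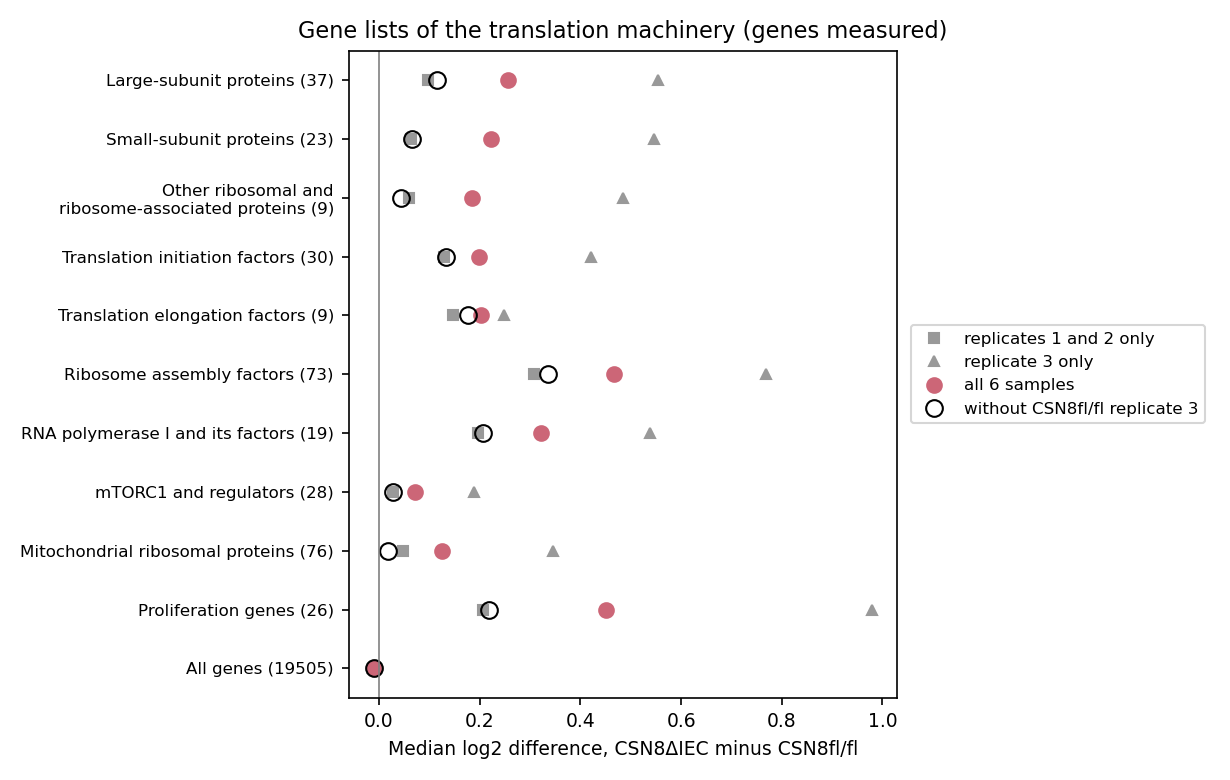
Median log2 difference between genotypes (horizontal axis) over the genes of each list (rows, number measured in parentheses). Red points are all 6 samples, open circles leave out CSN8fl/fl replicate 3, squares are replicates 1 and 2 only and triangles replicate 3 only; ribosome assembly factors lie at 0.47 with all samples and 0.34 without that sample, and the large- and small-subunit proteins at 0.12 and 0.065 without it.

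CSN8fl/fl replicate 3 was also apart in other gene groups. Proliferation genes, 26 measured of 28, were at a median of 0.0079, 0.030 and −0.72 for replicates 1 to 3 of CSN8fl/fl relative to the mean over the 6 samples and at 0.21, 0.24 and 0.27 in CSN8ΔIEC. Their lowest value was in CSN8fl/fl replicate 3 in 26 of 26 (25.7% of all genes), and 0 passed between genotypes. Unadjusted, 14 were higher and 0 lower (all genes 6.95% and 8.01%). The median difference was 0.45, or 0.22 without that sample. Uhrf1, which maintains DNA methylation, the ribonucleotide reductase subunit Rrm2 and the chromatin remodeller Hells differed by 0.79 ± 0.15 (adjusted p = 0.0543), 0.74 ± 0.16 (adjusted p = 0.0684) and 0.66 ± 0.18 (adjusted p = 0.132). Markers of intestinal stem cells (9 of 11 measured) were at −0.48 in CSN8fl/fl replicate 3 and markers of B and plasma cells (6 of 9) at −0.81. Markers of tuft cells (12 of 14) were at 2.10 there, of T cells and intraepithelial lymphocytes (10 of 11) at 0.55 and of enterocytes (12 of 13) at 0.38. The mean log2 signal of the tuft cell list was 7.17 to 8.74 in CSN8fl/fl and 5.92 to 5.95 in CSN8ΔIEC, and that of the proliferation list 8.61 to 9.33 and 9.57 to 9.58. Paneth cell markers, 14 of 14 measured, were not low in that sample: they were at 0.77, 0.69 and 0.74 in CSN8fl/fl and −0.90, −1.22 and −0.19 in CSN8ΔIEC. The part of these groups in the ribosomal protein signals was not tested. In RNA of whole crypts, fewer cells of a type and less RNA per cell cannot be told apart.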

How the data were processed

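The values are log2 probe set signals as deposited. The authors used RMA and Partek 6.6, per the submitters' processing notes; their settings are not given in the sources used. RMA fits the same distribution of signals to every array, so a change in total mRNA per cell is not seen. Of 22206 probe sets, 19572 had 1 symbol in the platform annotation, 0 several and 2634 none. The brightest probe set stood for each of 55 genes with more than 1, which gave 19505 genes. Genotypes were compared with limma 3.58.1 in R 4.3.3 (linear model with empirical Bayes moderation) and Benjamini-Hochberg adjustment; the function was tested on simulated data. Alternatives were each sample left out, the replicate number as a block, labelled sex and age as covariates, another quantile normalization, centring on the 75th percentile, a filter on dim genes, the mean of a gene's probe sets, an intensity trend and a robust prior. Arrays have no read depth, and their number limits the precision.

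The members and lists were chosen with earlier results of these data known, so lists are described by counts and medians and not tested. Named members are the 5 smallest p-values and the 2 highest and 2 lowest differences of each subunit, members of fixed roles, paralog pairs and the 3 largest and 3 smallest SDs; of each list, the 3 smallest p-values. Ribosomal protein genes have many near-identical pseudogenes, and shared signal was not separated.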

Additional observations from a re-analysis of the deposited data

How the results depend on the processing

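The medians of both subunits kept their sign under every alternative run. They moved by less than the SD between samples of a group (0.18 for the 60 genes). That SD includes CSN8fl/fl replicate 3, so it cannot show that the medians are stable without that sample. Leaving it out took the large-subunit median from 0.26 to 0.12 and the small-subunit median from 0.22 to 0.065. None of the members tested passed in any alternative (60, or 58 with dim genes left out and 55 without the paralogs), apart from Rps4l. The count was 0 to 1 over the samples left out in turn in the small subunit and over all 60 genes, with the 1, Rps4l, without CSN8ΔIEC replicate 2. Over all 19505 genes, 210 were called, 41 (without CSN8ΔIEC replicate 1) to 228 with 1 sample left out, 109 without CSN8fl/fl replicate 2, 122 and 114 without CSN8ΔIEC replicates 2 and 3, 324 with an intensity trend and 97 without both samples of replicate 3, an alternative chosen after seeing the data. With the replicate block 202 genes were called and 0 of the 60 (Rps4l adjusted p = 0.0787; 3 higher unadjusted, against 7). Whether samples of the same number are pairs cannot be told from these values. Deviations of same-numbered samples correlated at 0.087, −0.019 and 0.087, and 3 of 6 samples correlated best with their own number. The deviations are from the mean of 3 samples, which in CSN8fl/fl includes the replicate 3 that stood apart. Same-numbered samples share their labels of sex and age. The elongation list had a median of 0.18 to 0.26 with 1 sample left out and 0.15 without both of replicate 3. The sign of 5 uncalled genes turned with 1 sample left out. Rps9 ran from −0.061 to 0.19, Rps14 from −0.033 to 0.23, Rpl39l from −0.33 to 0.17, Rps27l from −0.052 to 0.13 and Rpl38 from −0.046 to 0.17; Rps27l was −0.0064 with samples centred on the 75th percentile, and Rpl38 −0.15 without both samples of replicate 3. The cause was not tested. The median over all genes moved by less than 0.1 under either scaling.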

Other observations

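Sesn1, a p53 target that restrains mTORC1, shared the sample pattern of Rps4l, which was noticed after the values were seen. Sesn1 was at 10.32, 10.34 and 10.27 (CSN8fl/fl replicates 1 to 3) and 9.64, 10.15 and 9.64 (CSN8ΔIEC replicates 1 to 3), so that in both genes CSN8ΔIEC replicate 2 lay nearer to the CSN8fl/fl values than replicates 1 and 3 did. Neither passed the threshold (adjusted p = 0.188 and 0.213), and the likeness was not tested.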
